A study of Mus musculus with 2 samples.

Results

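Monocyte marker genes were described here in RNA of flow-sorted long-term haematopoietic stem cells, the rare marrow cells that renew the blood. The 10 genes were Ccr2, F13a1, Fn1, Ly6c2, Lyz1, Lyz2, Cd14, Ms4a6c, Cx3cr1 and Mpeg1, out of 17216 genes listed in either library. They were chosen by name as markers of the monocyte lineage, with earlier results of these libraries known, so their differences are given as a description. One library came from C57BL/6 mice of the genotype Ccp3-/-, which lack the cytosolic carboxypeptidase CCP3, and the other from wild type littermates of the same strain. The cells had been sorted as negative for lineage markers and CD48 and positive for Sca-1, c-Kit and CD150. The labels do not give the number of animals behind a library, their sex or age, or the extent of the deletion. With 1 library per genotype no test between genotypes was possible, and no difference below has a replicate check.

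Monocytes are phagocytes that leave the marrow for the blood and enter tissues during inflammation. In the mouse, classical monocytes carry much Ly6C and the chemokine receptor CCR2, while non-classical monocytes patrol the vessel wall with little Ly6C and much CX3CR1. Their precursors descend from progenitors shared with granulocytes and dendritic cells, and some of their transcripts, lysozyme among them, are also made by neutrophils.

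There were 16318 genes listed in the knockout-labelled library and 16532 in the wild type library, and their low FPKM values lay on steps that correspond to about 14.3 M reads for the knockout-labelled and 15.3 M reads for the wild type library. The libraries are called KO and WT where values stand in brackets. Agbl3, the gene of CCP3, was listed at 0.66 FPKM in the knockout-labelled library and 1.11 FPKM in the wild type library (about 15 reads in KO and 23 in WT). The label was not checked by this value, because transcript outside the deleted part is counted too. Cd48, whose protein the gate excluded, stood at 114 FPKM in the knockout-labelled and 136 FPKM in the wild type library. Slamf1, which encodes the CD150 the gate required, stood at 3.4 FPKM in the knockout-labelled and 2.14 FPKM in the wild type library. RNA does not give surface protein, but the level of Cd48 goes against the gate in both libraries. The libraries also differed in sex-linked RNA, with Xist at 44.2 FPKM in the knockout-labelled and 5.38 FPKM in the wild type library, and the Y-linked gene Eif2s3y at 11.5 FPKM in the knockout-labelled and 44.6 FPKM in the wild type library. This difference and the genotype cannot be told apart.

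All 10 genes were listed in both libraries and averaged 1 FPKM or more over the libraries, the minimum for all counts below. Of these, 5 were at least 1.5-fold higher in the knockout-labelled library on the log2(FPKM + 1) scale, namely Fn1, Ccr2, F13a1, Cd14 and Lyz1, and 0 were at least 1.5-fold lower. Every call of 1.5-fold below is on this scale, on which a scarce gene can lie within 1.5-fold while its FPKM values differ by more. Over all 11985 genes that passed this minimum, 6.11% were that much higher and 6.13% that much lower, and nothing is read from the markers' share because they were chosen with these differences in view. With both libraries scaled to equal FPKM sums, these shares were 12.3% higher and 3.31% lower, and the same number of markers, 5, was higher. The median difference of the 10 genes was 0.47, against 0.01 over all genes. The genes at the edge of the threshold were Lyz1 at 0.63 and Cd14 at 0.64 inside it and Lyz2 at 0.32 outside it, where 0.58 stands for 1.5-fold. In RNA of mixed cells, more cells of a type and more RNA per cell cannot be told apart.

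**Figure D1:**
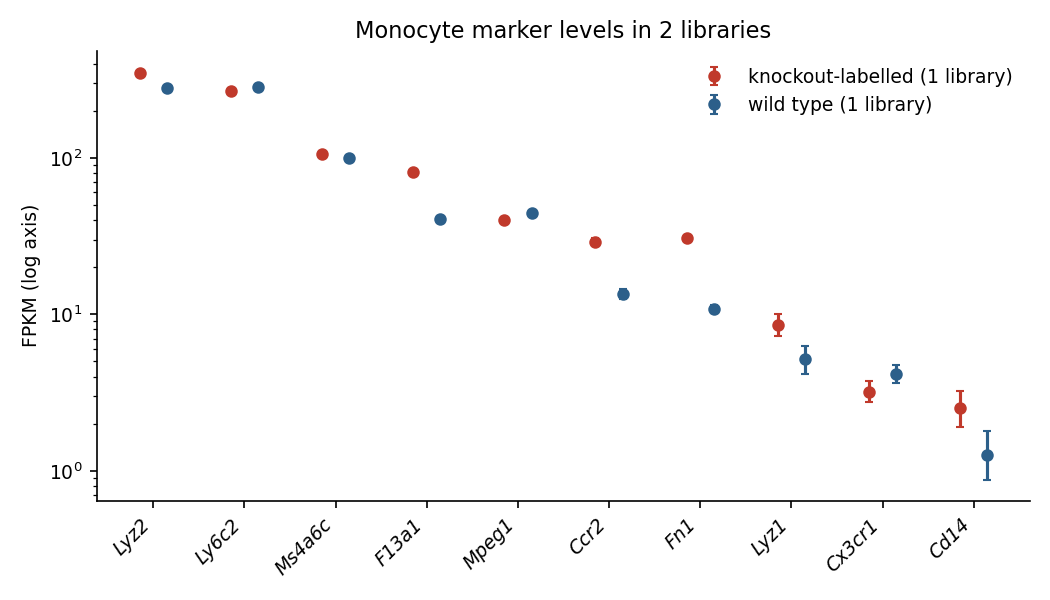
FPKM (log axis) of the 10 monocyte marker genes in the knockout-labelled library (red, left of each pair) and the wild type library (blue), with exact 95% Poisson intervals for counting error only. Ccr2, F13a1 and Fn1 stand well apart between the libraries, while the points of Ly6c2 and Ms4a6c lie close together.

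In the knockout-labelled library the order was Lyz2, Ly6c2, Ms4a6c, F13a1, Mpeg1, Fn1, Ccr2, Lyz1, Cx3cr1 and Cd14. The neighbours Fn1 and Ccr2, and Cx3cr1 and Cd14, had overlapping counting intervals there. In the wild type library the order was Ly6c2, Lyz2, Ms4a6c, Mpeg1, F13a1, Ccr2, Fn1, Lyz1, Cx3cr1 and Cd14, with overlapping intervals for Ly6c2 and Lyz2 and for Lyz1 and Cx3cr1. F13a1 thus stood above Mpeg1 in the knockout-labelled library and below it in the wild type library. In the knockout-labelled library Lyz2 exceeded 98.9% of listed genes and Cd14 exceeded 36.7%. In the wild type library Lyz2 exceeded 98.6% and Cd14 exceeded 29.7%.

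The chemokine receptor genes Ccr2 and Cx3cr1 had unlike ratios. Ccr2, the receptor that classical monocytes use to leave the marrow, was listed at 29.2 FPKM in the knockout-labelled library and 13.5 FPKM in the wild type library (about 1477 reads in KO and 735 in WT). Set over wild type, the ratio was 2.16, with a 95% counting interval of 1.97 to 2.36. Cx3cr1, the fractalkine receptor most abundant on non-classical monocytes, was listed at 3.21 FPKM in the knockout-labelled and 4.17 FPKM in the wild type library. Its ratio was 0.770 (0.628 to 0.941). Cx3cr1 thus lay within 1.5-fold, and its difference of −0.30 was −0.15 with equal FPKM sums. The counting interval of Ccr2 lay wholly above that of Cx3cr1. Ccr2 was accordingly 9.09 times the level of Cx3cr1 per length in the knockout-labelled library and 3.24 times in the wild type library. Their ligands were scarce: Ccl2 (KO 0.09, WT 0.42 FPKM) and Cx3cl1 (KO 0.16, WT 0.48 FPKM) were under 1 FPKM, and Ccl7, Ccl8 and Ccl12 were listed in neither. Of 14 other chemoattractant receptors, 10 passed the minimum, with 2 higher by 1.5-fold or more and 3 lower. The higher ones were Ccr1 (KO 3.12, WT 1.47 FPKM) and the formyl peptide receptor gene Fpr2 (KO 3.63, WT 1.97 FPKM). The lower ones were Ccr7 (KO 1.02, WT 2.73 FPKM), Ccr9 (KO 0.98, WT 2.29 FPKM) and Ccrl2 (KO 3.53, WT 5.98 FPKM). The most abundant of the list, Cxcr4 (KO 62.0, WT 52.4 FPKM) and Cxcr2 (KO 27.2, WT 20.1 FPKM), lay within 1.5-fold.

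CD14 is the co-receptor that hands bacterial lipopolysaccharide to the receptor TLR4. Cd14 was among the scarcest of the markers, at 2.53 FPKM in the knockout-labelled library and 1.27 FPKM in the wild type library (about 59 reads in KO and 32 in WT). The ratio was 1.99 (1.27 to 3.15), the widest interval of the 10 genes relative to its value. The partners of CD14 were chosen with their values known: Tlr4 (KO 2.33, WT 1.41 FPKM) and Ly96, which encodes the TLR4 partner MD-2 (KO 4.2, WT 5.77 FPKM), both lay within 1.5-fold. Of 19 genes of CD14 and Toll-like receptor signalling, 18 passed the minimum, and 0 were higher and 3 lower by 1.5-fold or more (median 0.14). The lower genes were Tlr7 (KO 2.3, WT 4.66 FPKM) and the pair Cd180 (KO 9.78, WT 15.6 FPKM) and Ly86 (KO 30.1, WT 46.9 FPKM), whose products form a receptor complex on B cells and other cells. The adaptor gene Myd88 (KO 31.7, WT 25 FPKM) and Irak3, an inhibitor of this signalling in macrophages (KO 22.0, WT 18.0 FPKM), lay within 1.5-fold.

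F13a1 encodes the A subunit of coagulation factor XIII, a transglutaminase that cross-links fibrin and is made by monocytes and megakaryocytes. It was listed at 81.2 FPKM in the knockout-labelled library and 40.55 FPKM in the wild type library (about 4447 reads in KO and 2382 in WT), a ratio of 2.003 (1.91 to 2.11). Platelet and megakaryocyte markers did not share that direction as a list, with 8 of 12 genes past the minimum, 1 of them higher and 3 lower by 1.5-fold or more (median −0.25). Gp9 was among the lower ones (KO 3.91, WT 7 FPKM), while Pf4 (KO 11.6, WT 13.4 FPKM) and Itga2b (KO 26.5, WT 20.9 FPKM) lay within 1.5-fold. Their part in the F13a1 difference was not tested.

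Fn1 encodes fibronectin, a matrix protein that classical monocytes and their precursors also make. It differed most of the 10 genes, at 30.8 FPKM in the knockout-labelled library and 10.8 FPKM in the wild type library (about 3426 reads in KO and 1295 in WT). The ratio was 2.86 (2.68 to 3.05), over 7 listed transcripts that could not be separated. Fibroblasts and other stromal cells also make fibronectin. Of 14 stromal markers, 5 passed the minimum, 0 were higher and 2, Cxcl12 (KO 4.57, WT 11.35 FPKM) and Bgn (KO 3.27, WT 6.65 FPKM), were lower by 1.5-fold or more. Thy1 (KO 16.8, WT 14.4 FPKM) and Pdgfrb (KO 12.6, WT 16.2 FPKM) lay within 1.5-fold. The collagen genes Col1a1 (KO 0.17, WT 0.14 FPKM) and Col3a1 (KO 0.04, WT 0.01 FPKM) and the receptor gene Pdgfra (0.01 FPKM in both libraries) were near 0. A further collagen gene, Col1a2 (KO 0.86, WT 0.63 FPKM), was under 1 FPKM but not near 0. Sparc (KO 2.35, WT 2.58 FPKM) passed the minimum and lay within 1.5-fold. The summed level of the 14 stromal markers was 42.4 FPKM in the knockout-labelled and 54.7 FPKM in the wild type library. The part of stromal cells in the Fn1 difference was not tested. Among 16 fibronectin receptors and coagulation partners, 13 passed the minimum. Of these, 1 was higher by 1.5-fold or more, F10, the gene of coagulation factor X (KO 21.6, WT 7.76 FPKM), and 0 were lower. The list's median was 0.30, and the integrin genes Itga4 (KO 34.9, WT 25.0 FPKM) and Itgb1 (KO 71.2, WT 57.7 FPKM), which encode chains of fibronectin receptors, lay within 1.5-fold, as did the transglutaminase gene Tgm2 (KO 19.2, WT 15.2 FPKM).

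**Figure D2:**
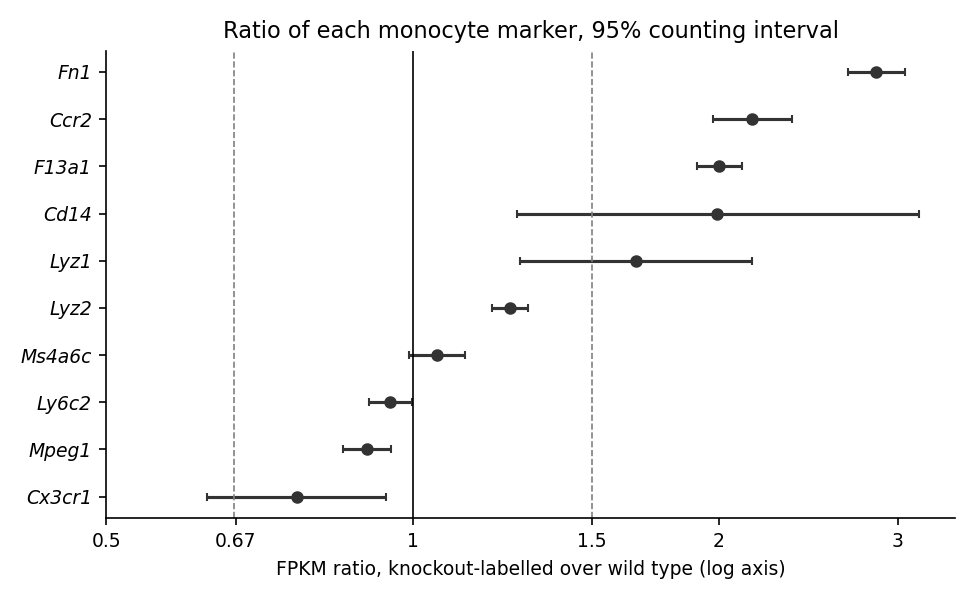
Ratio of FPKM in the knockout-labelled over the wild type library (log axis) for each monocyte marker gene, with exact conditional 95% counting intervals. Dashed lines mark 1.5-fold either way without a pseudocount; Fn1, Ccr2 and F13a1 have intervals wholly above 1.5, and Cd14 and Lyz1 have intervals that cross it.

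Lyz1 and Lyz2 are neighbouring lysozyme genes on chromosome 10, of which Lyz2 is the form of myeloid cells and Lyz1 that of intestinal Paneth cells. Their coding sequences, both 444 bases long without the stop codon, differed at 22 bases (95.05% identity). The first 120 coding bases of each are shown because reads of one can be assigned to the other; capitals mark the bases that differ, and the sequences are those of GENCODE release M21 on GRCm38.
Lyz1: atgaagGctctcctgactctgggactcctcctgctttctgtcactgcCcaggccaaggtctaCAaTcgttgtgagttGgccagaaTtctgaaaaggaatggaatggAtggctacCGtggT
Lyz2: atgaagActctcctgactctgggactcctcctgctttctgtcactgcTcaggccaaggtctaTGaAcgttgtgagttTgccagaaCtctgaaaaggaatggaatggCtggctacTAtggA
These stretches held 11 of the 22 differences, and 20.3% of all 50-base windows of the Lyz1 coding sequence occurred unchanged in Lyz2.

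Lyz2 was listed at 348 FPKM in the knockout-labelled library and 279 FPKM in the wild type library, a ratio of 1.25 (1.20 to 1.30). Lyz1 was listed at 8.55 FPKM in the knockout-labelled and 5.16 FPKM in the wild type library (about 151 reads in KO and 98 in WT), a ratio of 1.66 (1.28 to 2.16). Lyz2 was 40.6 times the level of Lyz1 per length in the knockout-labelled library and 54.0 times in the wild type library. At that imbalance, the share of Lyz1 reads that came from Lyz2 was not tested, and Lyz1 is uncertain as a single gene. The sum of both genes was 356 FPKM in the knockout-labelled and 284 FPKM in the wild type library, a ratio of 1.25 (1.20 to 1.31), which lay below 1.5-fold. With the copies counted as 1 gene, 4 of 9 markers were at least 1.5-fold higher.

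Ly6c2, one of the genes of the Ly6C antigen, was listed at 269 FPKM in the knockout-labelled library and 283 FPKM in the wild type library, a ratio of 0.951 (0.907 to 0.998). With equal FPKM sums its difference was 0.12, against −0.07 as deposited, so its direction depended on the scaling. Its close copy Ly6c1 (KO 11.8, WT 8.91 FPKM) also lay within 1.5-fold. Of all 50-base windows of the Ly6c2 coding sequence, 47.1% occurred in Ly6c1, so the genes are better read together, and their sum had a ratio of 0.963 (0.918 to 1.01). Among 12 other genes of the LY6 family, Ly6c1 included, 7 passed the minimum, and 0 were higher and 3 lower by 1.5-fold or more (median −0.57). These were Ly6d (KO 7.28, WT 19.3 FPKM), Ly6a, which encodes Sca-1 (KO 28.4, WT 49.1 FPKM), and Ly6i (KO 1.61, WT 3 FPKM). Ly6e (KO 356, WT 527 FPKM) lay just within 1.5-fold. Ly6c2 was 9.22 times the level of Ccr2 per length in the knockout-labelled library and 20.9 times in the wild type library.

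Ms4a6c, a membrane protein gene of the MS4A cluster, was listed at 106 FPKM in the knockout-labelled library and 100.3 FPKM in the wild type library, a ratio of 1.06 (0.992 to 1.13) whose interval included 1. Of 14 other MS4A genes, 8 passed the minimum, with 2 higher and 0 lower by 1.5-fold or more (median 0.06). The higher ones were Ms4a3, a gene of granulocyte and monocyte progenitors (KO 149, WT 88.3 FPKM), and Ms4a6d (KO 5.09, WT 2.13 FPKM). Ms4a4b (KO 6.59, WT 9.22 FPKM), Ms4a6b (KO 18.3, WT 20.6 FPKM) and Ms4a4c (KO 7.32, WT 7.4 FPKM) lay within 1.5-fold. Ms4a6c had few exact 50-base windows in common with its relatives, 0.997% with Ms4a6b and 0 with Ms4a6d.

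Mpeg1 encodes perforin-2, a pore-forming protein of phagocytes. It was listed at 40.0 FPKM in the knockout-labelled library and 44.3 FPKM in the wild type library, a ratio of 0.902 (0.855 to 0.952), and its difference of −0.14 became 0.04 with equal FPKM sums. Of the 6 other genes of the perforin and complement pore family examined, 0 averaged 1 FPKM or more; Prf1 led them (KO 0.49, WT 1.01 FPKM), and C8b and C9 were listed in neither library. Within the 10 markers, differences for Ly6c2, Ms4a6c, Mpeg1, Lyz2 and Cx3cr1 therefore ranged from −0.30 to 0.32 on the log2(FPKM + 1) scale. Those for the other 5 genes ranged from 0.63 to 1.43.

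**Figure D3:**
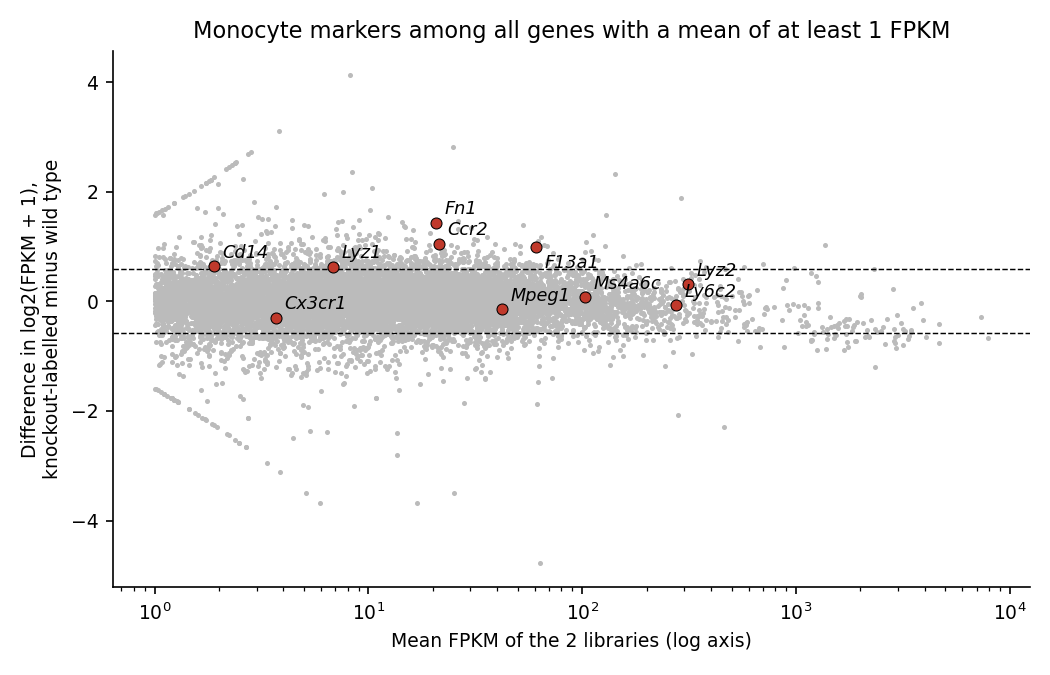
Difference in log2(FPKM + 1), knockout-labelled minus wild type, against mean FPKM (log axis) for the 11985 genes past the minimum (grey) and the 10 monocyte markers (red). Dashed lines mark 1.5-fold; Fn1, Ccr2 and F13a1 stand above the bulk of genes of like level, and the most abundant markers, Lyz2 and Ly6c2, lie between the lines.

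Promoter windows of the markers are shown for Ccr2 and F13a1, which were about 2 times higher in the knockout-labelled library, for Ly6c2, which lay within 1.5-fold, and for the lysozyme copies. Windows run from 250 bases before to 50 after the annotated start and were taken from RefSeq on GRCm38.p6, in which 8 of the 10 genes had windows that were used. Fn1 had no window, and Cd14 was left out. The counts of matches below therefore do not cover these genes, both of which were called higher. Capitals mark matches, on either strand, to GAGGAAG (a PU.1-type ETS site), TTGCNNAA (a C/EBP-type site) or TATAAA, and no matches overlap in these windows.
Ccr2, chr9:124101933-124102232, plus strand: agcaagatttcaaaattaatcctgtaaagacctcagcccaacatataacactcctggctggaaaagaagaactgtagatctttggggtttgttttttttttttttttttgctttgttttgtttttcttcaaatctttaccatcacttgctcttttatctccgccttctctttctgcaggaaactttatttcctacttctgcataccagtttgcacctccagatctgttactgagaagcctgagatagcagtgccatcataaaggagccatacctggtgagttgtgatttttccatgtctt
F13a1, 1 of its windows, chr13:37049164-37049463, minus strand: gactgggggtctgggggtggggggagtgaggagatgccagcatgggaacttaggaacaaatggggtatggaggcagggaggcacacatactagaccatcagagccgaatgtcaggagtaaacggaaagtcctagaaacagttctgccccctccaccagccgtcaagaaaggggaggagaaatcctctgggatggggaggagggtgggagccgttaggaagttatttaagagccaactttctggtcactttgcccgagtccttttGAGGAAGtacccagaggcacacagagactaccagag
Ly6c2, 1 of its windows, chr15:75111922-75112221, minus strand: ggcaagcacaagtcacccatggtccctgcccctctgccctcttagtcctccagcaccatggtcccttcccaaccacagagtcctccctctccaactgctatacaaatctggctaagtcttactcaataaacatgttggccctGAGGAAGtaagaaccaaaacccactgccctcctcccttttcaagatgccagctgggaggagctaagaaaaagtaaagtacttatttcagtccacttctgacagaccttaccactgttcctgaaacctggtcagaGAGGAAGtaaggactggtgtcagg
Lyz1, chr10:117292819-117293118, minus strand: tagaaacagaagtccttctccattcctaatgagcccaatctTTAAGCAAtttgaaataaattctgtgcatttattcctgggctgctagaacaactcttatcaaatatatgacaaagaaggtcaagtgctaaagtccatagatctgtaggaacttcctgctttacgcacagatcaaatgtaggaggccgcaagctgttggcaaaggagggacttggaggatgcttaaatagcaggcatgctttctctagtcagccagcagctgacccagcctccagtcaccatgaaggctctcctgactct
Lyz2, chr10:117282223-117282522, minus strand: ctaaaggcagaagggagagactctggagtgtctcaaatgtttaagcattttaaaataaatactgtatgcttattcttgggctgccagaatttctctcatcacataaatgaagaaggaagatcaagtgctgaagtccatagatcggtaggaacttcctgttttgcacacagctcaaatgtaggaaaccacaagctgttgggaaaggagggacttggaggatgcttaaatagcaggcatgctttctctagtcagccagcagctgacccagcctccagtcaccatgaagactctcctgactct
The GAGGAAG letters were found in windows of 2 of the 8 genes, F13a1 and Ly6c2, and 13.6% of 32851 promoter windows of all genes held them. In the windows shown they lay 15 bases after the F13a1 start, and 108 bases before and 27 after the Ly6c2 start. TTGCNNAA was found in Lyz1 alone of the 8, on the reverse strand 209 bases before the start, against 10.8% of all windows. TATAAA was found in 0 of the 8 genes, against 13.6% of all windows. The counts of genes take a match in any window of a gene, and F13a1 and Ly6c2 had more than 1. The percentages count single windows, so counts and percentages are not on the same footing. The Lyz1 and Lyz2 windows were 82.5% identical over their alignment. A match of letters is a description of the window and does not show that a factor binds there.

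Of 30 other classical monocyte markers, 29 passed the minimum, with 9 higher and 1 lower by 1.5-fold or more (median 0.31). Among the higher were the matrix gene Emilin2 (KO 49.9, WT 21.7 FPKM), the haemoglobin scavenger gene Hp (KO 142, WT 66.5 FPKM) and the protease gene Ctsg (KO 1832, WT 895 FPKM). The lower one was the interferon-induced gene Ifi27l2a (KO 6.87, WT 17.5 FPKM). Vcan, a proteoglycan gene of classical monocytes (KO 3.12, WT 0.33 FPKM), and the matrix gene Thbs1 (KO 5.16, WT 1.18 FPKM) were chosen with their values known. The ratio of Vcan was 9.45 (7.03 to 12.97). Prtn3 and Ctsg are also neutrophil genes, and without the genes shared with the neutrophil list 7 of 27 were higher and 1 lower, with a median of 0.27. The 7 were Vcan, Lgals3, Hp, Emilin2, Thbs1, Clec4e and Fcgr4 (KO 3.13, WT 1.56 FPKM). Whether Fcgr4 stands for classical rather than non-classical monocytes was not tested.

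Of 17 non-classical monocyte markers, 13 passed the minimum, with 1 higher and 3 lower by 1.5-fold or more (median −0.16). Nr4a1, a transcription factor gene needed for non-classical monocytes and also an immediate early gene (KO 37.9, WT 87.3 FPKM), and Fabp4, a fatty acid carrier gene (KO 4.27, WT 9.54 FPKM), were among the lower. The transcription factor gene Pou2f2 (KO 26.3, WT 17.5 FPKM) and the ribonuclease gene Ear2 (KO 48.4, WT 40 FPKM) lay within 1.5-fold. Of 18 tissue macrophage markers, 12 passed the minimum, with 1 higher and 0 lower by 1.5-fold or more (median −0.05). The lysosomal gene Cd68 (KO 41.8, WT 32.3 FPKM), the adhesion gene Vcam1 (KO 8.15, WT 5.13 FPKM) and the haem oxygenase gene Hmox1 (KO 4.85, WT 7.61 FPKM) lay within 1.5-fold, as did Adgre1, the gene of the antigen F4/80 (KO 1.67, WT 0.94 FPKM). The 1 higher gene was the iron exporter gene Slc40a1 (KO 5.14, WT 2.95 FPKM). Cd163 (KO 4.13, WT 5.54 FPKM) and the complement genes C1qb (KO 2.47, WT 3.89 FPKM) and C1qc (KO 2.4, WT 1.78 FPKM) passed the minimum and lay within 1.5-fold. Mertk (KO 0.14, WT 0.15 FPKM) and Timd4 (KO 0, WT 0.03 FPKM) were near 0, and Marco was listed in neither library. The summed level was 77.2 FPKM in the knockout-labelled and 68.4 FPKM in the wild type library.

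Of 20 genes in a list of transcription factors of monocytes and related myeloid cells, 18 passed the minimum, with 4 higher and 2 lower by 1.5-fold or more (median 0.27). The C/EBP genes Cebpb (KO 21.95, WT 10.6 FPKM), Cebpe (KO 29.5, WT 15.3 FPKM) and Cebpa (KO 49.2, WT 27.8 FPKM) were higher, as was Zeb2 (KO 17.6, WT 10.4 FPKM). Cebpe and Gfi1 of this list are in the neutrophil list too, so Cebpe is counted as higher in both. Nr4a1 and Egr1 (KO 83.0, WT 186 FPKM) were lower. Irf8, which directs progenitors to monocytes and dendritic cells, was singled out after its value was seen and lay within 1.5-fold (KO 53.5, WT 65.5 FPKM). Of 13 cytokine receptor genes of monocytes, all past the minimum, 2 were higher and 0 lower by 1.5-fold or more (median 0.22). These were Csf2rb, a shared chain of the GM-CSF receptor (KO 46, WT 25.9 FPKM), and Il6ra (KO 14.9, WT 8.36 FPKM). Csf2ra, the other GM-CSF receptor chain (KO 48.2, WT 34.8 FPKM), and Il10ra (KO 6.56, WT 10 FPKM) lay within 1.5-fold. Csf1r, the receptor for the monocyte growth factor M-CSF, was singled out after its value was seen and lay within 1.5-fold (KO 19.5, WT 18.0 FPKM).

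Markers of other cells differed between the libraries too. Of 28 neutrophil markers, all listed in at least 1 library, 26 passed the minimum, with 14 higher and 0 lower by 1.5-fold or more (median 0.61). The largest differences of those named by the rule were the collagenase gene Mmp8 (KO 21.7, WT 7.84 FPKM) and Chil3 (KO 157, WT 66.97 FPKM). The other 12 lay within 1.5-fold, and the rise was not uniform. Among these 12, the 3 genes below 0 were Camp (KO 152, WT 207 FPKM), Ngp (KO 565, WT 581 FPKM) and Ly6g (KO 3.97, WT 5.38 FPKM). The summed level of the 28 neutrophil markers was 12504 FPKM in the knockout-labelled library and 8976 FPKM in the wild type library. That of the 10 monocyte markers was 918 FPKM in the knockout-labelled and 782 FPKM in the wild type library. As a list, dendritic cell markers went the other way, with 0 of 17 higher, 11 lower and a summed level of 374 FPKM in the knockout-labelled and 626 FPKM in the wild type library. The lower ones included H2-Aa, H2-Ab1, H2-Eb1, Cd74 and Flt3. The other 6 lay within 1.5-fold, and 3 of them were above 0. These were Xcr1 (KO 1.19, WT 1.12 FPKM), Clec9a (KO 1.21, WT 0.86 FPKM) and Tcf4 (KO 18.9, WT 14.1 FPKM). B cell markers had 0 of 13 higher and 10 lower, and summed to 66.7 FPKM in KO and 145 FPKM in WT. Genes of stem cells and the sort gate had 0 of 14 higher and 4 lower, and summed to 588 FPKM in KO and 837 FPKM in WT. The largest parts of that sum were Cd34 (KO 177, WT 248 FPKM), Cd48 (KO 114, WT 136 FPKM) and Flt3 (KO 82.5, WT 155 FPKM). The gate excluded CD48 protein, and Flt3 is counted among the dendritic cell markers too, so the sum is not a measure of stem cells. Kit (KO 56.5, WT 59.7 FPKM) and Slamf1 (KO 3.4, WT 2.14 FPKM) lay within 1.5-fold. T and natural killer cell markers had 0 of 12 higher and 5 lower, erythroid markers 1 of 14 higher and 7 lower, and endothelial markers 0 of 8 higher and 4 lower. Mast cell, basophil and eosinophil markers had 1 of 12 higher and 1 lower. The part of these cell types in the monocyte marker differences was not tested.

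**Figure D4:**
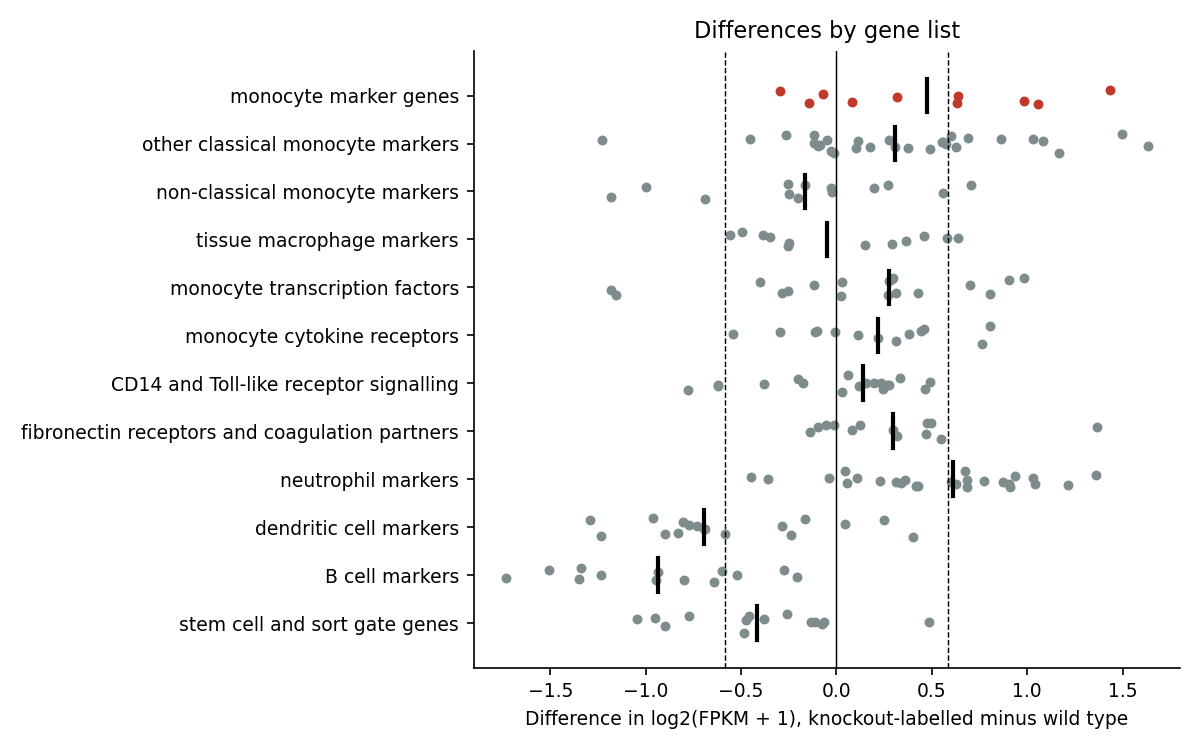
Difference in log2(FPKM + 1), knockout-labelled minus wild type, of each gene that averaged 1 FPKM or more in 12 lists; each point is a gene, thick bars are list medians and dashed lines mark 1.5-fold. The monocyte markers (red) spread from −0.30 to 1.43, neutrophil markers centre at 0.61 and dendritic cell and B cell markers at −0.69 and −0.94.

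Transcript length moved with the difference over all genes. The median difference was −0.30 for 1212 genes with a deposited length under 1000 bases and 0.25 for 1782 genes of 5000 bases or more. Among the markers, Ly6c2 was the shortest at 875 bases and Fn1 the longest at 7855 bases on average. After the median of the 200 genes nearest in length was subtracted, Fn1 stood at 1.14, Ccr2 at 0.99, F13a1 at 0.87, Lyz1 at 0.81 and Cd14 at 0.74. All 5 differences were still above 0.58, or 1.5-fold. On that scale Lyz2 stood at 0.54, Ms4a6c at 0.25, Ly6c2 at 0.20, Mpeg1 at −0.21 and Cx3cr1 at −0.37.

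**Figure D5:**
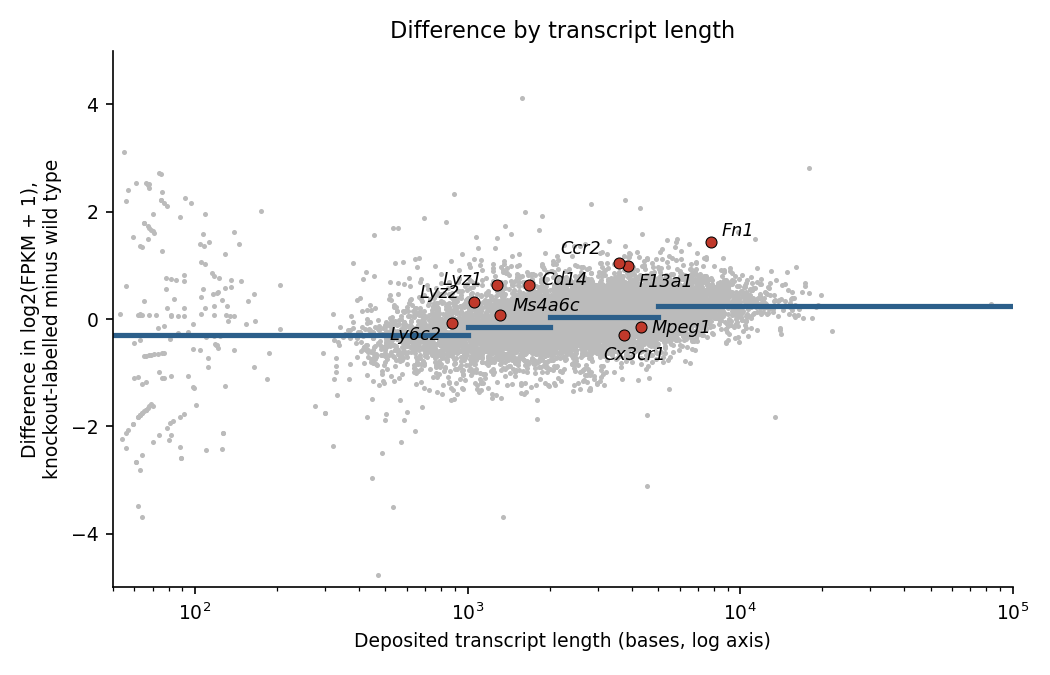
Difference in log2(FPKM + 1), knockout-labelled minus wild type, against deposited transcript length (log axis) for all genes that averaged 1 FPKM or more (grey) and the monocyte markers (red). Blue bars are medians within 4 ranges of length, from −0.30 under 1000 bases to 0.25 from 5000 bases; Fn1, Ccr2, F13a1, Lyz1 and Cd14 lie above the bar of their range by more than the other markers.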

How the data were processed

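The authors' deposited files gave, per library, an Entrez gene identifier, RefSeq transcripts, a length and an FPKM value (fragments adjusted for gene length and sequencing depth), per the file headers. The submitters' processing notes name HISAT, HISAT2 and RSEM and the build mm9; no version or setting is given in the sources used here. Genes missing from a file counted as 0 FPKM. Symbols came from RefSeq on GRCm38 (17169 of 17216 identifiers matched).

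The difference was log2(FPKM + 1), knockout-labelled minus wild type, which understates low genes. Ratios use FPKM without the pseudocount. Lists were counted over genes that averaged 1 FPKM or more, at 1.5-fold. Reads were estimated from the step between FPKM values of short genes with 1 transcript. Of such values 86.6% of 187 in the knockout-labelled and 82.3% of 209 in the wild type library lay within 0.15 of a whole read, for steps chosen on these values. Intervals rest on those estimates, are approximate, and cover counting error only. Members and lists were chosen with earlier results of these data known. Genes named from a monocyte list, a list of partners or families, or the macrophage, stromal and platelet lists were up to 4 with a mean of at least 5 FPKM by absolute difference, the members of small counts, those said to be singled out, and markers named to show a cell type's level; a gene that this rule names is not reported here. The remaining cell type lists are given by counts or summed levels, with few or none of the genes that the rule would name. The procedure was tested on simulated data. With 2 libraries each gene has 1 difference, so no gene was named for likeness of pattern. Python 3.11.15 was used with scipy 1.17.1, numpy 2.4.6, pandas 2.3.3 and matplotlib 3.10.9.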

Additional observations from a re-analysis of the deposited data

How the results depend on the processing

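The count of 5 markers at least 1.5-fold higher stayed within 1.5 times under 8 of 9 alternatives, and that of markers lower was 0 under all 9. Leaving out the filter on low values could not change either count, because all markers passed it. With a pseudocount of 5 FPKM, 3 markers were at least 1.5-fold higher (Fn1, Ccr2 and F13a1), since it shrinks the differences of scarce genes, Lyz1 to 0.42 and Cd14 to 0.26. Over all genes the shares fell too under that setting, to 2.35% higher and 2.69% lower, against 6.11% and 6.13% as deposited. The median difference of 0.47 was 0.29 with a pseudocount of 5 FPKM, 0.33 with Lyz1 and Lyz2 summed, 0.64 with equal FPKM sums and 0.64 after centring on transcript length. With equal sums the median of all genes moved to 0.18, and calls of at least 1.5-fold over all genes became 1474 higher and 397 lower, against 732 and 735. The differences of Ly6c2 and Mpeg1 were then 0.12 and 0.04, against −0.07 and −0.14 as deposited, and after length centring Ly6c2 was 0.20, so no direction is given for these genes. Of 78 values of single markers under the alternatives, 64 moved by less than their counting error, 14 by more, and 0 of the 5 genes called higher changed sign. The 64 include all values without a filter and with a mean of at least 5 FPKM. Those settings leave the difference of a single gene as it was, so these values could not move and say nothing about stability. No paired analysis was possible because there was 1 library per genotype. Cd14, with about 59 reads in KO and 32 in WT, and Lyz1, with about 151 in KO and 98 in WT, are the markers whose precision depth limits most.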

Other observations

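Protein-coding genes next to the markers were also described, 5 on each side in the RefSeq order on GRCm38. Among 90 distinct neighbours that are not markers themselves, 51 averaged 1 FPKM or more, and 2 were higher and 4 lower in the knockout-labelled library by 1.5-fold or more (median −0.12). Over all genes past this minimum, 6.11% were that much higher and 6.13% that much lower, and nothing is read from the neighbours' counts. The higher neighbours were Ccr1, beside Ccr2 in the chemokine receptor cluster, and Ms4a6d, beside Ms4a6c. The lower ones were Ly86 near F13a1, Ly6a and Ly6i near Ly6c2, and Csrnp1 near Cx3cr1, which was listed at 6.83 FPKM in the knockout-labelled and 10.9 FPKM in the wild type library. The 4 neighbours of Fn1 that averaged 1 FPKM or more had a median of −0.19, and the 7 of F13a1 had a median of −0.16. These neighbours were listed after the markers' values were seen, and a shift shared by neighbouring genes was not tested.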
